A study of Caenorhabditis elegans with 2 samples.

Results

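The histone genes of Caenorhabditis elegans were examined for binding of MDL-1, a leucine zipper protein of the MAD family, in L1 larvae. They were taken as the protein-coding genes of the WBcel235 Ensembl annotation whose symbol is his- or hil- with a number, with htz-1, htas-1 and hcp-3 added, which gave 83 of 19973 protein-coding genes. The annotation repeats 14 symbols over 36 of these genes, so each gene is called here by its RefSeq name, matched through its WormBase identifier. The set held 9 linker histone H1 genes, 19 H2A, 16 H2B, 20 H3 and 16 H4 genes, the centromeric H3 gene hcp-3 and 2 short fragments, his-39 and his-73. The data were chromatin immunoprecipitation and sequencing (ChIP-seq) peak lists from 1 group of 2 biological replicates. Both were whole first-stage larvae of both sexes from strain OP106, which is listed with unc-119(ed3) on chromosome III and the transgene wgIs106, an insertion for mdl-1 tagged with eGFP. The tagged protein therefore came from a transgene in an unc-119 mutant background that all samples share, its level against the endogenous protein is unknown here, and a whole larva mixes dividing with non-dividing cells. There was no untagged, untreated or mutant group, so binding was described within these lists and against all genes, with no test between conditions.

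Core histones H2A, H2B, H3 and H4 form the protein spool of the nucleosome, and H1 binds the linker DNA between nucleosomes. Replicative histone genes of animals are present in many near-identical copies in clusters, lack introns and end their mRNA in a stem-loop in place of a poly(A) tail, and they supply histones during DNA replication. Variant or replication-independent genes, such as those for H3.3 and H2A.Z, usually stand alone, carry introns and are expressed also outside S phase. MAD proteins, paired with MAX-like partners such as MXL-1 in the worm, bind the E-box CACGTG and are known as repressors that oppose Myc-type factors in proliferation.

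A histone stem-loop was found within 300 bases after the coding sequence of 56 of the 83 genes, and in the whole annotation 61 of 19973 genes held one. In 52 of the 56 it was the first sequence printed here, in 4 (his-52, his-54, his-20 and his-22, all H2B genes) the second, shown on the coding strand with the paired stem in capitals.
his-3 (V:16041224-16041239, plus strand): GGCCCtctttaGGGCC
his-52 (V:8850872-8850887, plus strand): GGCCCtcttaaGGGCC
The 56 genes encoded few proteins: all 11 stem-loop H2A genes encoded 1 protein, as did all 15 H3 and all 15 H4 genes, while the 15 H2B genes encoded 3. Of the 83 genes, 61 lay in 11 clusters, where a cluster is at least 3 histone genes with gaps of at most 5000 bp, and 22 lay outside. None of the 56 stem-loop genes had an intron, against 19 of the 27 others. The 27 are not variant genes only. They include his-19, his-47, his-53 and his-57, clustered genes that encode the same H2A protein as his-3 and had no IDR or pooled summit. For his-57 this holds for an isoform of 127 residues, while its stem-loop search used the longest isoform, of 147 residues. It was annotated with 2 introns.

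The DNA under the histone promoter peaks is shown for 7 of the 8 peaks, as the 101 bases of WBcel235 (the same sequence as ce11) centred on the summit of each. The 292 bases between the divergent replicative genes his-4 and his-3 are shown with them, because they share a 14-base string with the his-37 and his-24 peaks that is described further on. Capitals mark the E-box CACGTG, the TATA-box word TATAAA on either strand, and the shared string on either strand.
his-37 (V:9546962-9547062, plus strand): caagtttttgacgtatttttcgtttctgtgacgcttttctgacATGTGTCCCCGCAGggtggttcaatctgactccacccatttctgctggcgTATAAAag
his-24 (X:14490030-14490130, plus strand): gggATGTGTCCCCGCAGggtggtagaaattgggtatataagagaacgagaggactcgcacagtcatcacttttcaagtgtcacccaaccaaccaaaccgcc
htz-1 (IV:4445850-4445950, plus strand): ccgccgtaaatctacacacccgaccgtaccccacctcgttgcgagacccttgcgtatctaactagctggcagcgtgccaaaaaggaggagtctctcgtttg
hil-7 (IV:6646118-6646218, plus strand): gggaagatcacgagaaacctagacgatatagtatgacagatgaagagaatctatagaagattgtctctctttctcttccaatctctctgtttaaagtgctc
hcp-3 (III:9616578-9616678, plus strand): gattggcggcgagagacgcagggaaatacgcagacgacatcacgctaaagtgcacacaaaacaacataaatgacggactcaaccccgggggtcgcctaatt
his-72 (III:12369119-12369219, plus strand): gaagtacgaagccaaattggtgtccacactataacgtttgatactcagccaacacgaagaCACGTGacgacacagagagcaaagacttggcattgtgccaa
his-35/his-41 (V:9545400-9545500, plus strand): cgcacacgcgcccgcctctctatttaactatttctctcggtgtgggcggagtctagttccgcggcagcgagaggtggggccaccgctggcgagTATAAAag
his-4/his-3 (V:16040516-16040807, plus strand): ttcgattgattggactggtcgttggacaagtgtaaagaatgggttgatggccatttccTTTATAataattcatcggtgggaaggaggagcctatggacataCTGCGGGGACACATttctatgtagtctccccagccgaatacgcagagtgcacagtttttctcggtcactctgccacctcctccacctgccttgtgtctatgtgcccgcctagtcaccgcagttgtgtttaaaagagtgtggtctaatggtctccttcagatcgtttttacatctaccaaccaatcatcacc
Among the 7 summits only that of his-72 has CACGTG in the printed window, and his-37 and his-35/his-41 hold TATAAA.

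MDL-1 peaks were found at a small subset of the histone genes, most of them without a stem-loop. The optimal list, made by the authors with irreproducible discovery rate (IDR) filtering, which weighs each peak's rank across lists, held 3870 peaks. A gene was counted where a peak summit fell in its promoter window, from 1000 bp upstream to 200 bp downstream of its 5' end. By this count 10 of 83 histone genes had an IDR summit (12.0%, exact 95% interval 5.93 to 21.0%), beside 12.8% of all protein-coding genes, so the share of the whole set was near the background. Those 10 genes shared 8 distinct peaks. Outside clusters 7 of 22 genes had a summit (31.8%, 13.9 to 54.9%), and in clusters 3 of 61 (4.92%, 1.03 to 13.7%). Split by the stem-loop, 9 of 27 genes without one had a summit (33.3%, 16.5 to 54.0%) and 1 of 56 with one did (1.79%, 0.0452 to 9.55%). The stem-loop count depended on the replicate: in the 3870 highest peaks of replicate 2 alone it was 3 of 56 (5.36%, 1.12 to 14.9%), with his-61 and his-62 added to his-67, and the count without a stem-loop was 8 of 27 (29.6%), beside 12.4% of all genes. Split by gene structure, 8 of 19 genes with an intron (42.1%, 20.3 to 66.5%) and 2 of 64 without (3.12%, 0.381 to 10.8%) had one. Replicate 2 alone gave 7 of 19 (36.8%) and 4 of 64 (6.25%). With only the 1935 highest IDR peaks 6 histone genes had a summit, beside 7.16% of all genes, and with each summit given only to the nearest 5' end 7 did, beside 9.62%. The 7740 highest pooled peaks gave 11, beside 20.6% of all genes. The 3870 highest peaks of replicate 1 alone gave 10, beside 12.3%, and those of replicate 2 alone 11, beside 12.4%. The 3 splits overlap in the same genes and are not separate results. Only the split by cluster was planned, and those by stem-loop and intron were added later. These Clopper-Pearson intervals treat genes as independent and cover counting error only, although neighbours share peaks.

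**Figure D1:**
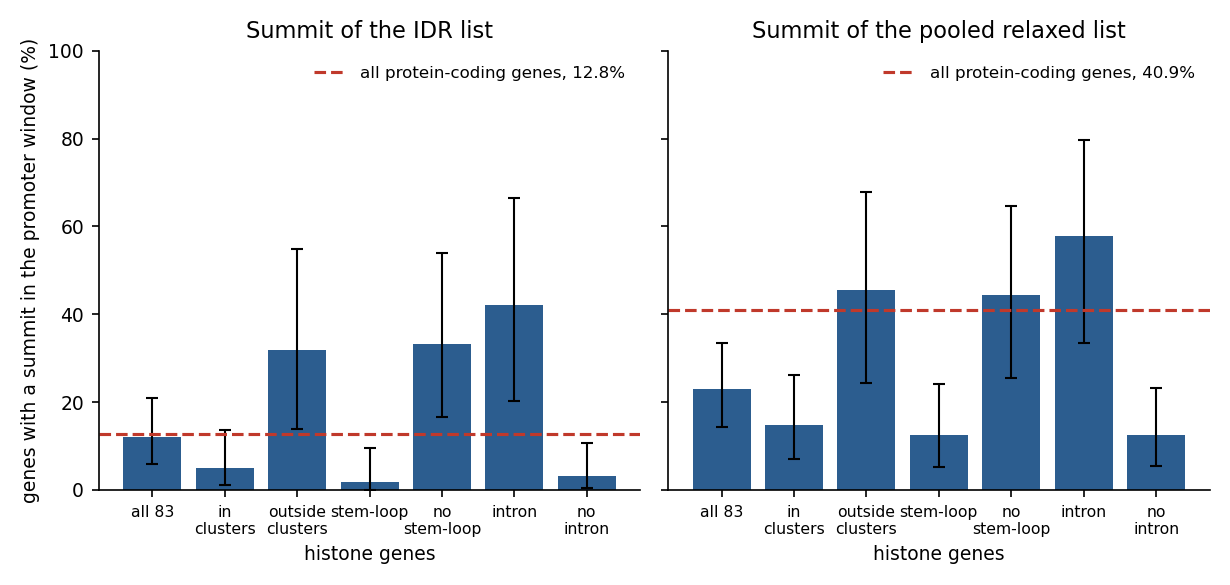
Share of histone genes (%, bars) with a peak summit in the promoter window in the IDR list (left) and the pooled relaxed list (right), by genomic arrangement, stem-loop and intron, with exact 95% intervals as error bars and the share of all protein-coding genes as a dashed line. In the IDR list genes outside clusters (31.8%) and with an intron (42.1%) lie above the 12.8% of all genes, and genes with a stem-loop (1.79%) lie below it.

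The relaxed lists, which hold 30000 peaks each and include background, gave higher counts in every group and in all genes. In the pooled relaxed list 19 of 83 histone genes had a promoter summit (22.9%), beside 40.9% of all genes. The count was 10 of 22 outside clusters (45.5%), 9 of 61 in clusters (14.8%), 12 of 27 without a stem-loop (44.4%) and 7 of 56 with one (12.5%). Genes outside clusters and those without a stem-loop were thus near the share of all genes here. The whole set, genes in clusters and genes with a stem-loop were below it. By gene structure the count was 11 of 19 with an intron (57.9%, 33.5 to 79.7%) and 8 of 64 without (12.5%). The intron group was thus above the share of all genes, though its interval spans that share. Replicate 1 alone had a relaxed summit at 26 of the 83 genes, beside 42.1% of all genes, and replicate 2 at 23, beside 40.2%.

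Among the core histone genes the highest peak lay at his-37, a single-intron H4 gene without a stem-loop whose protein was identical to that of the 15 stem-loop H4 genes. Its peak (V:9546913-9547115, summit 9547012, 93 bp upstream of the 5' end) scored 255.5 in the pooled list, 150.1 in replicate 1 and 104.6 in replicate 2. The score is the authors' peak caller's own value, on a scale that no header or label states, so it orders peaks within 1 list only. The his-37 peak ranked 101 of the 3870 IDR peaks, 111 in replicate 1 and 115 in replicate 2. Next to it on chromosome V, the divergent genes his-35 (H2A) and his-41 (H2B), each with 1 intron and no stem-loop, shared 1 peak between their 5' ends (V:9545295-9545604). It scored 50.45 in the pooled list at rank 2358, 38.93 in replicate 1 at rank 1621 and 13.55 in replicate 2 at rank 4621, so it was the only one of the 8 below rank 3870 in a replicate. The window of the coding gene C50F4.6 held the same summit. The his-35 protein differed from the replicative H2A of his-3 at 1 of 127 positions, and the his-41 protein from the H2B of his-4 at 3 of 123. These 3 genes met the cluster rule and gave all 3 of the clustered genes with an IDR summit. The other 58 clustered genes had none by construction, since the genes set apart were those with a summit. In the 3870 highest peaks of replicate 2 alone 2 of these 58, his-61 and his-62, had a summit. In those peaks his-35 and his-41 had none. By type, 2 of 16 H4 genes (12.5%) and 1 of 16 H2B genes (6.25%) had an IDR summit, beside 12.8% of all genes.

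H2A genes with an IDR summit were htz-1, his-68 and his-35, 3 of 19 (15.8%, 3.38 to 39.6%), beside 12.8% of all genes, a share near the background. htz-1 encodes H2A.Z, the variant placed at promoters by SWR1-type remodellers. Its peak (IV:4445814-4445990) scored 192.5 in the pooled list at rank 205, 93.67 in replicate 1 at rank 343 and 101.3 in replicate 2 at rank 127. The summit lay 316 bp upstream of htz-1 but only 160 bp upstream of the cohesin release factor gene wapl-1, so the peak cannot be given to either gene from position alone. On chromosome I, his-68 (H2A, no stem-loop match) and his-67 (H4) are divergent genes that shared 1 peak (I:9988828-9989137) with a score of 82.8 in the pooled list, 36.15 in replicate 1 and 43.94 in replicate 2. Its ranks were 1125, 1807 and 805. his-67 was the only stem-loop gene of the 56 with an IDR summit, the window of the argonaute gene alg-5 held the summit too, and both genes encode the replicative H4 and H2A proteins. The sperm H2A gene htas-1 had no pooled summit, and in replicate 2 alone a relaxed one of score 9.34 at rank 8317.

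Of the 20 H3 genes only his-72 had an IDR summit (5.0%, 0.127 to 24.9%), beside 12.8% of all genes, which the interval spans. The centromeric H3 gene hcp-3, counted apart from these 20, had one too. his-72 encodes an H3.3, the replication-independent H3, whose annotated isoform of 136 residues differed from the replicative H3 of his-2 at 9 positions (the longest isoform has 151 residues). Its peak (III:12369014-12369323, summit 119 bp upstream) scored 56.41 in the pooled list, 34.56 in replicate 1 and 26.58 in replicate 2, with ranks of 2049, 1922 and 1855. It was the only one of the 8 with CACGTG within 50 bp, 10 bp from the summit. The other H3.3 gene, his-71, whose protein differed from that of his-2 at 8 of 136 positions, had only a relaxed pooled summit (score 12.28, rank 11420). The H3.3-like genes his-69, his-70 and his-74 had no promoter summit in any of the lists, nor had the fragments his-39 and his-73. hcp-3 encodes the centromeric H3 that marks the holocentric chromosomes of the worm. The hcp-3 peak (III:9616473-9616782, 158 bp upstream) scored 65.45 in the pooled list, 25.42 in replicate 1 and 33.65 in replicate 2, at ranks 1656, 2868 and 1322.

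Linker histone genes all carried an intron and lay outside clusters, and 2 of the 9, hil-7 and his-24, had an IDR summit (22.2%), beside 12.8% of all genes, and with 9 genes the exact interval spans that share. hil-7, annotated with a protein of 66 residues, had a peak (IV:6646013-6646322) of score 108.3 in the pooled list, 47.2 in replicate 1 and 54.76 in replicate 2. The ranks were 692, 1202 and 504, and the non-coding RNA gene C01B10.45 lay within 200 bp of the summit. his-24 encodes an H1 known in the worm for roles in germline silencing. Its peak (X:14489925-14490234, summit 14 bp upstream) scored 56.06 in the pooled list, 26.1 in replicate 1 and 30.53 in replicate 2, at ranks 2064, 2769 and 1509, with the non-coding RNA gene M163.19 within 200 bp. Of the other 7, hil-3 (score 28.11, rank 4590) and hil-2 (16.72, rank 7754) had relaxed pooled summits below the lowest IDR score of 32.74. hil-1 had a summit inside its window in replicate 2 alone (24.28, rank 2122). It belongs to an IDR peak found in both replicates, whose pooled summit lay 1023 bp upstream, just outside the window. hil-5 had a promoter summit in replicate 1 alone (rank 16655). hil-8 had one in each replicate at different positions (ranks 14088 and 16416) with none in the pooled list. hil-4 and hil-6 had none in any list.

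**Figure D2:**
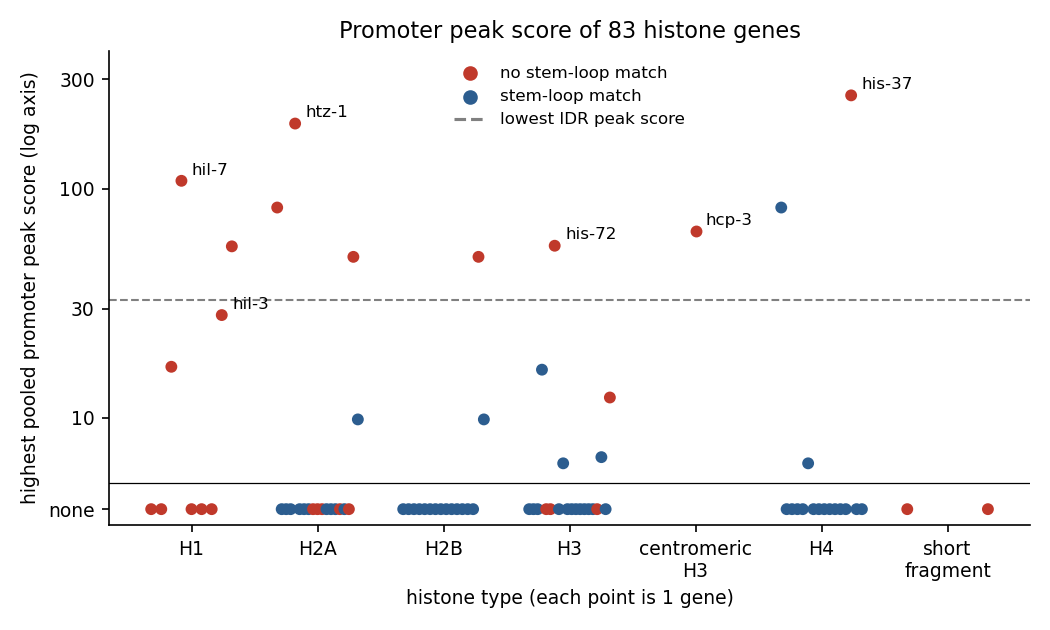
Highest pooled promoter peak score (vertical log axis, authors' score) of each of the 83 histone genes by histone type, with genes without a summit at the bottom, coloured by stem-loop match. his-37 (255.5), htz-1 (192.5) and hil-7 (108.3) stand highest, and only 1 stem-loop gene, his-67 (82.8), lies above the lowest IDR peak score.

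All 8 peaks had a summit within 100 bp in both replicates' relaxed lists, which the IDR selection favours, so it is given as a description. Ranks in replicate 2 were higher up the list than in replicate 1 for htz-1, hil-7, his-67/his-68, hcp-3, his-24 and, by little, his-72. They were nearly equal for his-37, and lower for his-35/his-41. With 1 list per replicate no spread within a replicate can be had. The pooled list names a control in the deposited inventories and the replicate lists in ce11 name none, so pooled and replicate ranks are not made alike.

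**Figure D3:**
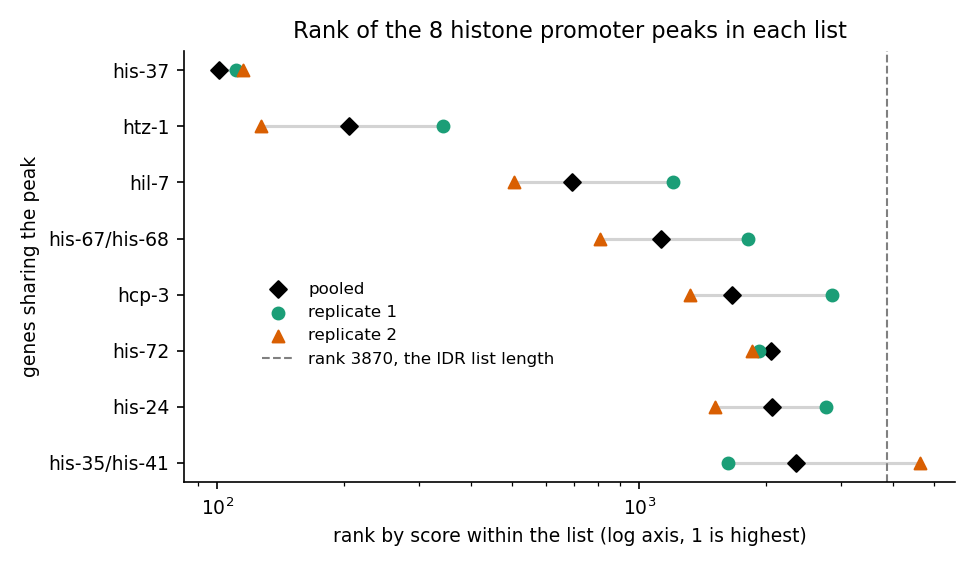
Rank by score (horizontal log axis, 1 is highest) of the 8 histone promoter peaks in the pooled, replicate 1 and replicate 2 lists. The his-37 peak sits at 101, 111 and 115, and only the his-35/his-41 peak passes rank 3870, at 4621 in replicate 2.

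Beyond the cluster of his-35, his-41 and his-37, no cluster had an IDR summit in a promoter window. Of the 53 clustered stem-loop genes none had an IDR summit (upper bound 6.72%) and 6 had a pooled relaxed one (11.3%). The highest in each cluster that had one were his-42 (H3, chromosome II, score 16.24, rank 8017), his-3 and his-4 (H2A and H2B, chromosome V, 9.854, rank 15818) and his-31 and his-32 (H4 and H3, chromosome IV, 6.339, rank 28683). his-2 (H3) followed his-3 and his-4 in the same cluster with 6.745 at rank 26633. All lie below the lowest IDR score, and his-31, his-32 and his-2 near the end of the relaxed list at a score of 6.098. Distances to the nearest IDR summit ran from 3272 bp for the cluster of his-1 to his-4 to 61656 bp for that of his-49 to his-54. Outside the pooled list, his-61 and his-62, a divergent H2A and H2B pair, shared a summit in replicate 2 of score 15.66 at rank 3769, with none in replicate 1. The stem-loop pair outside clusters, his-38 and his-40, likewise had a summit in replicate 2 alone (4.616, rank 25509). In replicate 1 alone the clusters held low summits at his-8 (rank 11396), his-5 and his-6 (17960), his-1 (20946) and his-46 (29494).

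Repeated sequence moves with this absence. Reads from identical copies cannot be placed, so each promoter window was scored by the share of its 50-base words that occur once in the genome. The median share was 57.7% over the 83 histone genes, 14.8% in clusters, 100% outside clusters and 100% over all genes, and 19 histone windows were identical to another. Under 50% unique lay 40 histone genes, all in clusters, and none of them had an IDR or pooled relaxed summit. Over the genome 498 genes fell under 50%, of which 1.2% had an IDR summit and 4.62% a pooled one. The cluster of 13 genes on chromosome II had a median of 0, ranging to 70.9% at his-42, its 1 gene with a pooled summit. In these windows few unique words exist, so a missing peak cannot be told apart from unplaced reads; no header or label states the read length or mapping filters.

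Among genes whose window was at least 90% unique, where mapping leaves most positions readable, 10 of 30 histone genes had an IDR summit (33.3%, 17.3 to 52.8%), beside 13.7% of the 17898 such genes in the genome. A pooled relaxed summit was present at 16 of the 30, beside 43.3% of those genes. The 21 without a stem-loop gave 9 (42.9%, 21.8 to 66.0%) and the 9 with one gave 1 (11.1%, 0.281 to 48.2%). In the 3870 highest peaks of replicate 2 alone these counts were 8 of 21 (38.1%, 18.1 to 61.6%) and 3 of 9 (33.3%, 7.49 to 70.1%), so the contrast between them was nearly gone without replicate 1. That change rested on 1 summit shared by the divergent genes his-61 and his-62. It stood at rank 3769, near the cut, and neither replicate 1 nor the pooled list had a summit in their windows. With 9 genes the interval of the stem-loop group spans the genome share, so a difference from it was not detectable here. Of those 9, the cluster his-59 to his-62 (91.1 to 95.8% unique) had no IDR or pooled summit in any promoter window, while his-2, his-31 and his-32 had relaxed pooled summits only. Replicate lists held a relaxed summit at 4 of the 9 in replicate 1 (44.4%) and 6 of the 9 in replicate 2 (66.7%, 29.9 to 92.5%). The shares of all protein-coding genes, whatever their uniqueness, were 42.1% and 40.2%.

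**Figure D4:**
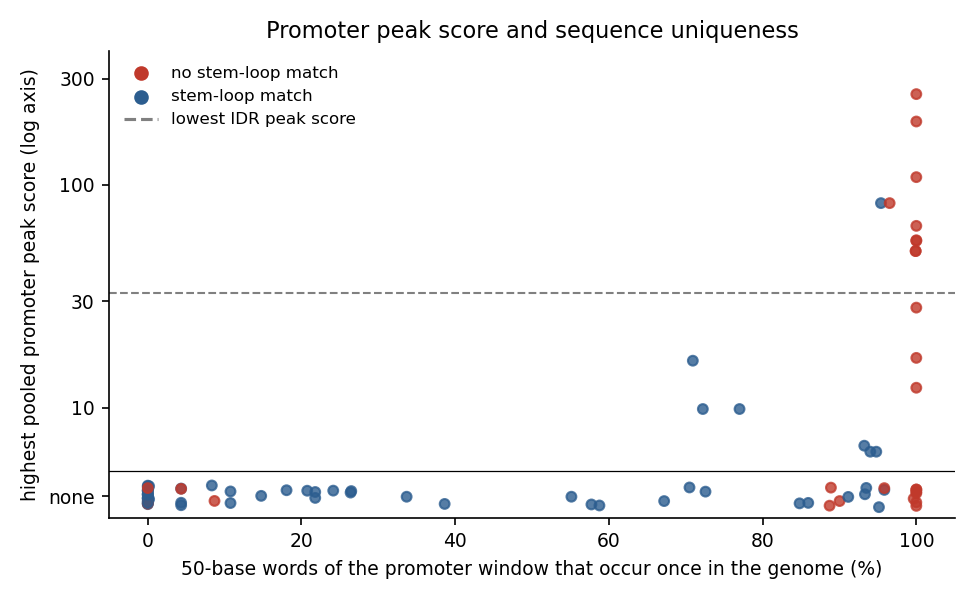
Highest pooled promoter peak score (vertical log axis, authors' score; genes without a summit at the bottom) against the share of 50-base words of the promoter window that occur once in the genome (%), 1 point per histone gene. All IDR peaks lie above 90% and no gene under 50% has a summit.

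A 14-base string was shared by genes with an IDR peak and by replicative genes without one. It was the longest string shared on either strand by the windows of his-37, his-24, his-3 and his-60, genes chosen after their sequences were seen, so their own matches are given by construction.
his-37 (V:9547005-9547018, plus strand): ATGTGTCCCCGCAG
This string, searched on both strands, occurred in 22 of 83 histone windows (26.5%) and in 30 of all 19973 windows (0.15%), so 8 of the 30 were not histone genes. By type it was in 4 of 11 stem-loop H2A, 4 of 15 H2B, 5 of 15 H3 and 6 of 15 H4 genes, and in 3 of the 27 genes without a stem-loop: his-37, his-24 and his-68. Divergent pairs share a copy, so the 22 genes rested on 12 sites, out of 30 in the genome. Within 50 bp of an IDR summit lay 3 of the 12 sites, at his-37 (0 bp), his-67/his-68 (15 bp) and his-24 (40 bp), and none of the 18 sites elsewhere. Since the string was taken from his-37 and his-24, 2 of these 3 were fixed by that choice. By window, 4 of the 22 histone genes with the string and 2 of the 8 other genes with it had an IDR summit. The share of all genes was 12.8%, and with so few genes no difference from it can be read. Of the 4, his-67 and his-68 shared 1 peak. Over all 1982 IDR peaks in promoter windows these 3 (0.151%) had the string within 50 bp. At his-3 and his-4 the string lay 11 bp from the relaxed pooled summit of rank 15818, and at his-60, in a window 95.8% unique, the nearest pooled summit was 1226 bp away. Of the genes with the string and no IDR summit, his-3, his-4, his-5, his-6, his-59 and his-60 had windows over 50% unique. The windows of the others were under 50% unique, so a missing peak there cannot be told apart from unplaced reads. The matches describe sequence only, and no factor's site is implied by them.

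The E-box was near few of the histone summits. CACGTG stood within 50 bp of the summit in 1 of the 8 histone peaks (12.5%), beside 202 of 1982 promoter IDR peaks (10.2%). Over whole promoter windows it was present in 7 of 83 histone genes (8.43%), beside 18.4% of all genes, with 3 of 61 in clusters (4.92%) and 4 of 22 outside (18.2%). TATAAA on either strand was within 50 bp of the summit in 2 of the 8 histone peaks (25.0%), at his-37 and at his-35/his-41, and in 83 of the 1982 (4.19%). These 2 peaks lie in the same cluster, and with 8 peaks no difference from that share can be read. In whole windows TATAAA was common in both, 88.0% of histone and 80.0% of all windows.

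Summits lay close upstream of the histone genes. The 10 pairs of gene and summit ran from 316 bp upstream (htz-1) to 14 bp upstream (his-24), with a median of 146.5 bp, beside a median of 235 bp upstream over the 2623 pairs of all genes. For 65 of the 83 genes the annotation has no 5' untranslated region, so distance counts from the start codon there. These include his-67, his-68 and, by its longest isoform, his-72. The median score of the 8 peaks was 74.12, beside 61.91 for the 1982 promoter peaks.

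**Figure D5:**
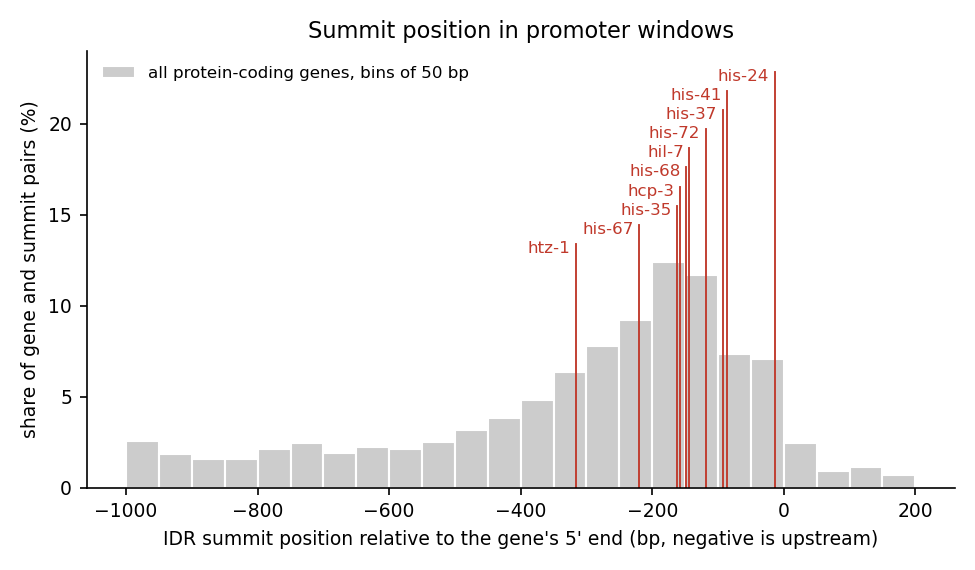
Position of the IDR summit relative to the 5' end (bp, negative is upstream) for all gene and summit pairs as a share per 50-bp bin (grey) and for the 10 histone pairs (red lines, height arbitrary). The histone summits lie between 316 and 14 bp upstream, in and near the highest bins of all genes.

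Other IDR summits lay near histone genes but outside the windows. hil-1 had one 1023 bp upstream, just outside the window limit, with a score of 82.53 in the pooled list (rank 1130), 62.4 in replicate 1 and 24.28 in replicate 2, whose summit for this peak fell just inside the window. The his-74 gene had one 102 bp past its end (68.41, rank 1541), 85 bp downstream of the 5' end of ccch-3, and hil-3 had one 197 bp past its end (54.62, rank 2128). A second summit 1166 bp upstream of his-72 (60.5, rank 1859) lay 240 bp upstream of the proteasome gene rpt-6. Summits beyond the ends of htz-1 (53.12, rank 2208) and his-35 (55.21, rank 2095) lay 132 bp upstream of chat-1 and 201 bp upstream of the spindle checkpoint gene mdf-1. For his-74, his-72, htz-1 and his-35 the nearest 5' end was that of the neighbour.

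Genes for histone deposition and histone mRNA processing were counted the same way from a list of 21, all in the annotation. An IDR summit lay in the promoter window of 9 of the 21 and a pooled relaxed one of 16, beside 12.8% and 40.9% of all genes. Highest were lin-53, a histone-binding chaperone subunit (score 166.2, rank 284), and ruvb-2, a helicase of the remodellers that exchange H2A.Z (144.7, rank 387). cdl-1, the stem-loop binding protein that processes replicative histone mRNA, followed with 68.04 at rank 1556 (ranks 1873 and 1525 in replicates 1 and 2), and the H2A and H2B chaperone gene nap-1 with 66.7 at rank 1602. The remaining 5 had lower scores. They were hmg-4, a FACT subunit (51.94, rank 4508 in replicate 2), and symk-1, symplekin of the 3' end processing complex (49.24, with no replicate 1 summit within 100 bp). The others were chaf-2 of the chromatin assembly factor (46.03), mys-1, a histone acetyltransferase (40.99), and unc-85, an ASF1 H3 and H4 chaperone (35.41, rank 5238 in replicate 2). None of the 9 had CACGTG within 50 bp of its summit, beside 202 of 1982 promoter IDR peaks (10.2%). With 9 genes no difference from that share can be read. The genes cpsf-2 and cpsf-3, the other ASF1 gene asfl-1, hmg-3 and rba-1 had no summit in the IDR or pooled list.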

How the data were processed

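ChIP-seq of tagged MDL-1 was analysed in 2 biological replicates of 1 group. Library fragments were sized between 150 and 350 bp, per the labels. Per the deposited file inventories the authors called relaxed peaks in each replicate and on pooled replicates, and made the IDR list from these. No header or label used here names the aligner, the caller or the IDR threshold. The deposited score column is the authors' caller's value with no stated scale and was used to rank peaks within a list. The deposited q-value column is −log10 and was not used for ranking. The deposited summit offset gave each summit's position. The lists hold no read counts, so depth is unknown.

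Coordinates are ce11, 1-based, with the WBcel235 Ensembl release 115 annotation and RefSeq names and sequence. Promoter windows, clusters, 50-base words, motifs and stem-loops were computed as described beside the results, and intervals are exact Clopper-Pearson 95% intervals, which cover counting error only. The stem-loop search required GG, 3 bases, T, any base, TT, any base, A, 3 bases and CC with complementary ends. An earlier pattern with TT before the single T matched 0 histone genes and was replaced after the sequences were seen. Named were all histone genes with an IDR summit, all outside clusters, the H1, H2A.Z, htas-1 and hcp-3 genes, those with a pooled summit within 7740 peaks, the highest of each cluster and the pathway genes with an IDR summit. The genes with low summits in 1 replicate alone, his-2, the peaks outside windows and the shared string were chosen after their values were seen. The splits by stem-loop and by intron and the TATAAA counts were not planned. The histone genes and the lists were chosen with earlier results of these data known, and no test was run.

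Counting was tested on simulated data, where 200 of 200 summits planted in windows and 0 of 200 planted 1 bp outside were counted. Alternatives covered windows, 5' ends, assignment, thresholds, single replicates, cluster rules, distances and word length. Python 3.11.15, numpy 2.4.6, pandas 2.3.3 and scipy 1.17.1 were used.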

Additional observations from a re-analysis of the deposited data

How the results depend on the processing

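Over the alternatives run, 60 of 67 recomputed values stayed within 1.5 times the reported one. Keeping only the 1935 highest IDR peaks left 6 histone genes with a promoter summit, 1 of them clustered, on 5 distinct peaks, of which 0 had CACGTG within 50 bp, while the share of all genes fell to 7.16%. Taking the pooled peaks up to 2 times the IDR count raised the share of all genes to 20.6%, and the histone genes only from 10 to 11, by adding hil-3. With a stem-loop in place of cluster membership 1 gene had a summit, his-67, in place of 3. Using each replicate alone (leave-one-out) gave 10 to 11 histone genes, 3 in clusters, 7 to 8 outside, 9 distinct peaks and 12.3 to 12.4% of all genes. Relaxed lists of single replicates gave 23 to 26 histone genes in place of 19. Replicate 2 alone added hil-1, his-61 and his-62 and lost his-35 and his-41, so its 3 clustered genes were his-37, his-61 and his-62, and its stem-loop count was 3 of 56 in place of 1. Giving each summit only to the nearest 5' end left 7 histone genes beside 9.62% of all genes, without htz-1, his-35 and his-67. A window from 2000 bp upstream added hil-1. With words of 36 and 100 bases the clustered median of unique sequence was 14.6% and 21.7%.

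No paired analysis was possible because the series has 1 group and no test between groups was made. The lists carry no depth, the relaxed lists end at 30000 peaks, and the 8 peaks are few, so the shares have wide intervals. Repeated windows limit what can be seen at 40 clustered genes.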
